A study of Mus musculus with 6 samples.

Results

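Genes of the Polycomb and Trithorax complexes were examined for their promoter contacts in promoter-capture Micro-C of mouse embryonic stem cells. The set held 41 genes, of which 25 encode repressive Polycomb proteins, 14 encode activating Trithorax-type proteins and 2 encode H3K4 demethylases, which were placed in neither class. The classes were assigned here, and that of Kdm6b is open to doubt: it removes the Polycomb mark but is no Trithorax methyltransferase subunit, and it supplied 34 of the 116 activating loops. A gene's contacts were taken from the capture baits that overlapped its RefSeq body extended by 2 kb on each side. By this rule 31 of the 41 genes had a bait, on 50 of 19083 baits, against 15434 protein-coding genes with a bait in the whole series. Ezh1, Jarid2, Phf1, Phf19, Pcgf6, Cbx2, Cbx8, Yaf2, Cxxc1 and Kdm5a had none and have no values here.

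The cells were wild-type E14 embryonic stem cells, a male line grown with serum and leukaemia inhibitory factor. They were collected 48 h after transfection with esiRNA, an enzyme-cut pool of short interfering RNAs. Ino80KD cells received esiRNA against Ino80, the ATPase of the INO80 chromatin remodeller, Brg1KD cells received esiRNA against Smarca4, which encodes Brg1, the ATPase of the esBAF remodeller, and Control cells received esiRNA against EGFP. Each group had 2 libraries. Replicate 1 of all 3 groups was batch 1, replicate 2 of Ino80KD and of Brg1KD was batch 3, and replicate 2 of Control was batch 2, so only the Ino80KD with Brg1KD comparison was balanced for batch. Separate cultures for the replicates are not stated, and p-values then measure only the spread between libraries, whatever its source. These are DNA libraries with no RNA values, so neither the knockdown nor cell identity was checked.

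Polycomb and Trithorax proteins are opposing regulators of developmental genes. Polycomb repressive complex 2 (PRC2) methylates histone H3 on lysine 27 and Polycomb repressive complex 1 (PRC1) ubiquitinates histone H2A, and both hold developmental genes silent in embryonic stem cells. Trithorax-type complexes of the KMT2 and SETD1 families methylate histone H3 on lysine 4 at promoters and enhancers and keep genes open to transcription.

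Of the 50 member baits, 18 held a start site listed for the gene and 22 lay inside the gene away from both its ends. The baits of Pcgf5 and Cbx7, and the Pcgf2 bait with the listed start, are in both counts. A start was listed for only 29 of the 41 members, so no bait of the others could be among the 18. The end of another gene also lay on 12 baits. Such a shared bait cannot assign its contacts to 1 gene. The promoters of 4 members are shown because a bait of each holds the listed start and their contacts are described most closely below. The start listed for Pcgf2 lies inside the gene, on the bait at chr11:97698645-97701504, and the gene's outer end is on another bait. The Pcgf2 loop described below comes from a bait with neither. The sequences are RefSeq's for GRCm38.p6, the assembly of mm10, from 250 bases before to 50 bases after the start, on the gene's own strand. Capitals mark CpG dinucleotides, which cluster in the unmethylated islands that Polycomb and Trithorax complexes bind. The Bmi1 window is chr2:18676768-18677067 on the plus strand with 23 CpG, and that of Setd1a is chr7:127777139-127777438 on the plus strand with 35. The Eed window is chr7:89980927-89981226 on the minus strand with 17 CpG, and that of Pcgf2 is chr11:97699599-97699898 on the minus strand with 10.
Bmi1: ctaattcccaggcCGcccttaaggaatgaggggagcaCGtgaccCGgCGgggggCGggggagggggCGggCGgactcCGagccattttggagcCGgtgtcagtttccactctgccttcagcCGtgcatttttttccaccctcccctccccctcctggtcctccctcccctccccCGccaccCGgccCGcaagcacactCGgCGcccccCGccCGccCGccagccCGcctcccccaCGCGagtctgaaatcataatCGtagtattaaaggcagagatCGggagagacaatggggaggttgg
Eed: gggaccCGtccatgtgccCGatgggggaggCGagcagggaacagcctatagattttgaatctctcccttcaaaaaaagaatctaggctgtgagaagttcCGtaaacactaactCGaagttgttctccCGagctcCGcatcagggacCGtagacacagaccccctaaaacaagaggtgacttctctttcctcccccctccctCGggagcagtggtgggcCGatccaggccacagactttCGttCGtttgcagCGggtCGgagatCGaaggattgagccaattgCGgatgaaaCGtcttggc
Pcgf2: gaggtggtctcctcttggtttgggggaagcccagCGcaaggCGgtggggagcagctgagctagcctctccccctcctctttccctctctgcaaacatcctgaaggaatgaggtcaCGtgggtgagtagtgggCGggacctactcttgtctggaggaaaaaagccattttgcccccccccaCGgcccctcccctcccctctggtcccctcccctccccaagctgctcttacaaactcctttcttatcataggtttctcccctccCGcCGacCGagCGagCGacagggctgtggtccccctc
Setd1a: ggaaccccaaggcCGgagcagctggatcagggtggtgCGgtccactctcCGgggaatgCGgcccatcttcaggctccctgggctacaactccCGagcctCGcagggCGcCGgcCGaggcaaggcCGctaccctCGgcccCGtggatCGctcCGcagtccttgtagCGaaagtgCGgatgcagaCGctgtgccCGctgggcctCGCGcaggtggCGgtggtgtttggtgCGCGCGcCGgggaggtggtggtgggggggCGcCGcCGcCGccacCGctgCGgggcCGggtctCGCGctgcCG

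These 4 windows span much of the range among the members. A window was listed for 20 of the 25 repressive genes, with a median of 27 CpG and a range of 10 to 49, and for 8 of the 14 activating genes, with a median of 31 and a range of 16 to 56. Across 17492 protein-coding genes with a window the median was 15 CpG. Pcgf2, printed above at a start inside the gene, had the fewest CpG of any member with a window, and Kmt2c the most. The YY1 motif AANATGGCG, searched on both strands, lay in the windows of Phf19 and Kmt2a among the members and in 3.39% of all windows. The CTCF motif AGGGGGCGC and the ETS motif CCGGAAGTG lay in no member's window, and in 1.77% and 2.86% of all windows.

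A loop here is a pair of a bait and another end that the authors listed in a library with a score of at least 5. Lists were made separately for each library and give no read counts, so the depth is unknown, and an unlisted loop is one under the minimum score, not an absent contact. A contact in more cells and a stronger contact in fewer cells cannot be told apart. Without 1 bait on chromosome 2 that alone held 884 to 1504 loops in each library, the lists held 14675 and 14113 intrachromosomal loops in Ino80KD, 12254 and 12962 in Brg1KD, and 15322 and 14394 in Control. Member genes held 46 and 51 of these in Ino80KD, 30 and 32 in Brg1KD, and 43 and 39 in Control. Per 1000 intrachromosomal loops, that is 3.37 ± 0.339 in Ino80KD, 2.46 ± 0.0145 in Brg1KD and 2.76 ± 0.0686 in Control (SD, n = 2 each). An intrachromosomal loop was listed for 29 members in at least 1 library, and for Kdm2b and Dpy30 the bait had none of these. The loops described below are intrachromosomal.

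Taken as a class, repressive genes held a larger share of the listed loops in both Ino80KD libraries than in any Brg1KD or Control library. Activating genes did not. Repressive genes had 29 and 32 loops in Ino80KD, 13 and 13 in Brg1KD, and 23 and 14 in Control. As a share of all intrachromosomal loops this was 1.98 and 2.27 per 1000 in Ino80KD, 1.06 and 1.00 per 1000 in Brg1KD, and 1.50 and 0.973 per 1000 in Control. Both Ino80KD libraries lay above all libraries of the other groups, and the Brg1KD libraries lay between the Control libraries. The 95% Wilson intervals, which cover counting error only, were 1.38 to 2.84 and 1.61 to 3.20 in Ino80KD, 0.620 to 1.81 and 0.586 to 1.72 in Brg1KD, and 1.00 to 2.25 and 0.579 to 1.63 in Control. The intervals overlap between groups. They take loops as independent, but loops of nearby baits and ends can share a contact, so the intervals can be too narrow.

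The ratio of group means at repressive genes was 1.72 for Ino80KD over Control (exact two-sided permutation p = 0.33, adjusted p = 0.6 over 9 tests). It was 2.06 for Ino80KD over Brg1KD (exact permutation p = 0.33, adjusted p = 0.6) and 0.834 for Brg1KD over Control (exact permutation p = 1.0). With 2 libraries a group no exact test can go below p = 0.33, so no difference passed. Within batch 1 the ratios were 1.32 for Ino80KD over Control, 1.86 for Ino80KD over Brg1KD and 0.707 for Brg1KD over Control, and within batch 3 the ratio was 2.26 for Ino80KD over Brg1KD. Among loops scoring at least 7, Ino80KD over Brg1KD was 3.29.

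Activating genes had 17 and 19 loops in Ino80KD, 17 and 19 in Brg1KD, and 19 and 25 in Control. That was 1.16 and 1.35 per 1000 in Ino80KD, 1.39 and 1.47 per 1000 in Brg1KD, and 1.24 and 1.74 per 1000 in Control. The groups overlapped except for the depletions, where both Ino80KD libraries lay just below both Brg1KD libraries. The ratio was 0.841 for Ino80KD over Control (exact two-sided permutation p = 0.667), 0.958 for Brg1KD over Control (exact permutation p = 1.0) and 0.878 for Ino80KD over Brg1KD (exact permutation p = 0.33, adjusted p = 0.6). The ratio for Brg1KD over Control was 1.12 within batch 1. Among loops scoring at least 7, the ratio at activating genes was 0.607 for Ino80KD over Control, 1.10 for Brg1KD over Control and 0.552 for Ino80KD over Brg1KD.

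**Figure D1:**
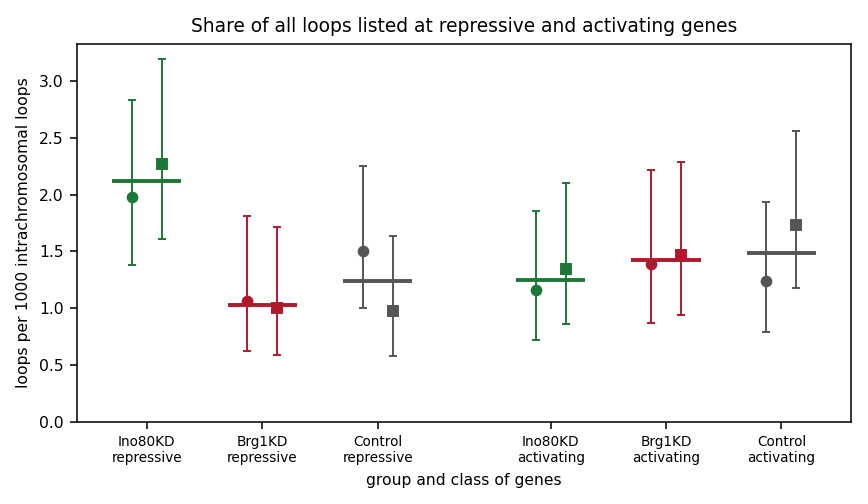
Loops listed at repressive and activating genes per 1000 intrachromosomal loops (vertical axis), by group; circles are replicate 1, squares replicate 2, bars 95% Wilson intervals for counting error, and lines group means. The Ino80KD libraries stand at 1.98 and 2.27 for repressive genes, above the Brg1KD and Control libraries, while the activating values of the 3 groups lie between 1.16 and 1.74.

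Repressive and activating genes were then set against each other. The repressive share of the loops of both classes was 63.0% and 62.7% in Ino80KD, 43.3% and 40.6% in Brg1KD, and 54.8% and 35.9% in Control. The Ino80KD libraries were close to each other and above all others, whereas the Control libraries spanned the Brg1KD ones. The difference was 17.6 percentage points for Ino80KD minus Control and 20.9 for Ino80KD minus Brg1KD (exact two-sided permutation p = 0.33, adjusted p = 0.6 for each). It was -3.35 percentage points for Brg1KD minus Control (exact permutation p = 1.0). For Ino80KD minus Control the difference was 8.13 percentage points without Control replicate 2 and 27.0 without Control replicate 1. Without Bmi1 it was 13.1 percentage points for Ino80KD minus Control and 12.8 for Ino80KD minus Brg1KD. The share was not computed without Kdm6b, whose class is open to doubt.

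The sum of a class hides how unevenly its genes contribute. The PCGF genes of PRC1 had 16 and 11 loops in Ino80KD, 3 and 4 in Brg1KD, and 10 and 3 in Control. The PRC2 core genes had 6 and 4 in Ino80KD, 3 and 5 in Brg1KD, and 6 and 5 in Control. The PRC2 accessory genes had 2 and 4 in Ino80KD, 1 and 1 in Brg1KD, and 3 and 1 in Control. Among the repressive roles, only the PCGF genes lay above both Control libraries in both Ino80KD libraries. The genes with the most loops over the 6 libraries were Kdm6b with 34, Bmi1 with 27, Setd1a with 21, Rnf2 with 18, Suz12 and Kmt2b with 17 each, Pcgf2 with 14, Kmt2d and Cbx6 with 10 each, and Kmt2a and Ezh2 with 9 each. Bmi1, a PCGF subunit of PRC1, supplied 19 of the 61 repressive loops of Ino80KD, 1 of the 26 of Brg1KD and 7 of the 37 of Control. Without Kdm6b the ratio at activating genes was 0.955 for Ino80KD over Control, 1.05 for Brg1KD over Control and 0.907 for Ino80KD over Brg1KD. Without Bmi1 the ratio at repressive genes was 1.45 for Ino80KD over Control, 1.47 for Ino80KD over Brg1KD and 0.987 for Brg1KD over Control.

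**Figure D2:**
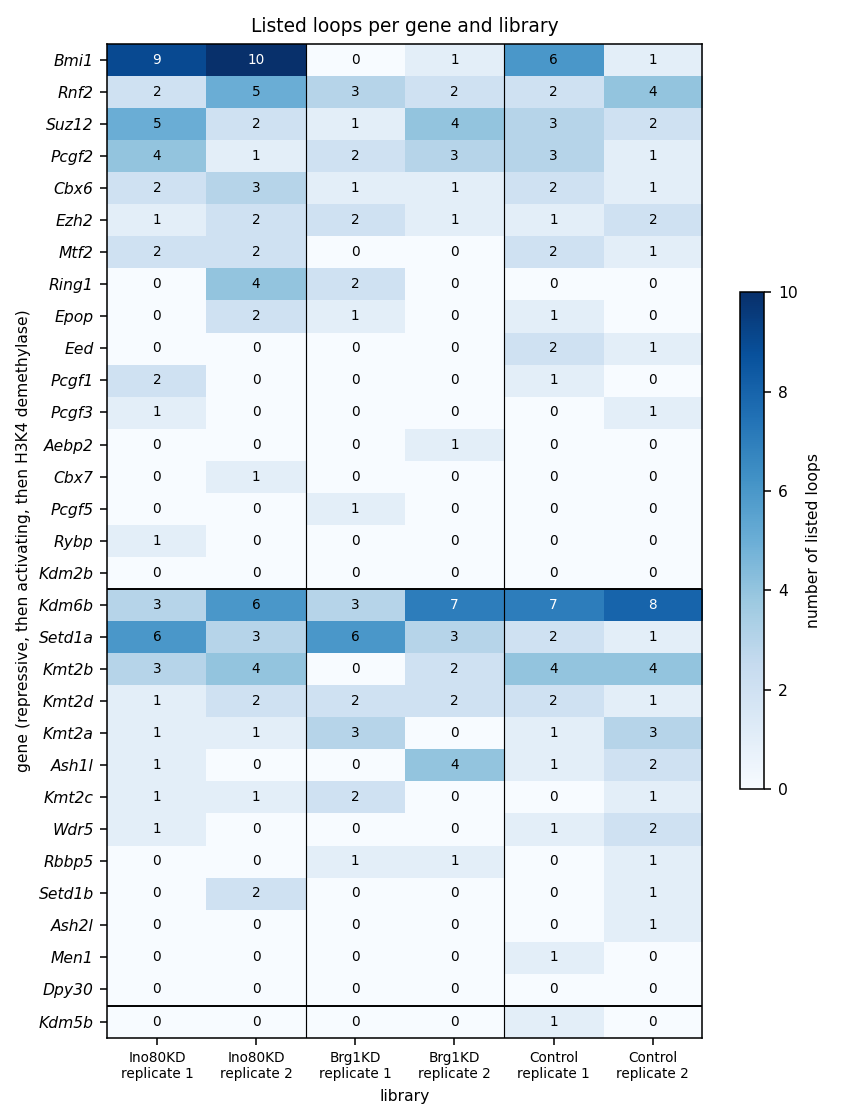
Number of listed loops (number and shade) of each member gene with a bait (rows) in each of the 6 libraries (columns), with repressive genes above, then activating genes, then Kdm5b. Bmi1 has 9 and 10 loops in Ino80KD, 0 and 1 in Brg1KD, and 6 and 1 in Control, while Kdm6b has 3 and 6 in Ino80KD, 3 and 7 in Brg1KD, and 7 and 8 in Control.

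Of the 3 PRC2 core genes with a bait, Ezh2 and Suz12 had loops in every library, and Eed had loops in the Control libraries only. Ezh2, the histone methyltransferase of PRC2, had 1 and 2 loops in Ino80KD, 2 and 1 in Brg1KD, and 1 and 2 in Control. Suz12, the scaffold subunit, had 5 and 2 loops in Ino80KD, 1 and 4 in Brg1KD, and 3 and 2 in Control. Counts of both genes overlapped in every comparison. From the Suz12 bait nearer to the gene's middle, a loop of 12.7 kb within the gene was listed in all 6 libraries, with scores of 7.96 and 6.0 in Ino80KD, 6.39 and 5.78 in Brg1KD, and 6.33 and 6.19 in Control.

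Eed reads methylated lysine 27 and stimulates the enzyme. It had no loop in either Ino80KD or Brg1KD library, against 2 and 1 loops in Control. All went from the promoter bait at chr7:89979629-89982103 to ends 169 and 189 kb away inside Picalm, a gene of clathrin-mediated uptake. The nearer one scored 7.18 and 5.06 in the Control libraries, the second of these just over the minimum. The 2 Eed entries had log2 fold changes of -0.15 ± 0.191 and -0.17 ± 0.202 (SE) in the authors' deposited table for Ino80KD. They had -0.42 ± 0.196 (p = 0.0315) and -0.40 ± 0.204 (p = 0.0479) in the authors' deposited table of the other depletion, Brg1KD, with no adjusted p below 1.00. Both depletions share the Control libraries, so the values are given side by side only.

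Among PRC2 accessory genes, Mtf2, a Polycomb-like protein that recruits PRC2 to CpG islands, had 2 and 2 loops in Ino80KD, 0 and 0 in Brg1KD, and 2 and 1 in Control. The Ino80KD and Control libraries thus stood above both Brg1KD libraries. Its loops were short, reaching 23.4 to 56.6 kb. Epop had 0 to 2 loops a library and Aebp2 had 1 loop in all.

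Of the PRC1 ubiquitin ligases, Rnf2, the main catalytic subunit in embryonic stem cells, had 2 and 5 loops in Ino80KD, 3 and 2 in Brg1KD, and 2 and 4 in Control. These counts overlap. Every Rnf2 loop ended 149 to 254 kb away in or beside Niban1, and the one from the bait inside Rnf2 to an end 234 kb away was listed in all 6 libraries. Its scores were 10.9 and 7.45 in Ino80KD, 6.65 and 6.06 in Brg1KD, and 7.67 and 5.29 in Control. Ring1, the paralogue of Rnf2, had 0 and 4 loops in Ino80KD, 2 and 0 in Brg1KD, and none in Control. Loops of 548 to 1095 kb from Ring1 to Notch4, to a bait at Notch4, Gpsm3 and Pbx2, and to a bait at Ly6g5b, Csnk2b and Gpank1 were listed in Ino80KD replicate 2 alone.

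Bmi1 showed the widest range of any member. Bmi1 lies at chr2:18677018-18686629 and has 2 baits, one of 2360 bases with the promoter printed above and with an end of Commd3, and one of the same length inside the gene, here called the inner bait. It had 9 and 10 loops in Ino80KD, 0 and 1 in Brg1KD, and 6 and 1 in Control. The Ino80KD counts lie above those of the other groups, but the Control libraries lie 5 loops apart, as far as Control replicate 1 lies from Brg1KD replicate 2. The promoter bait had 5 and 4 loops in Ino80KD, 0 and 1 in Brg1KD and 2 and 0 in Control, so that Ino80KD lay above both other groups. The inner bait had 4 and 6 loops in Ino80KD, 0 and 0 in Brg1KD and 4 and 1 in Control, so that Ino80KD lay above Brg1KD but met Control.

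Nearly all Bmi1 loops reached the same place. Of its 13 distinct loops, 10 ended 604 to 652 kb away, in a stretch with Skida1 and an end of Mllt10, a partner gene in leukaemia fusions. These were listed 8 and 8 times in Ino80KD, 0 and 1 times in Brg1KD, and 6 and 1 times in Control. The loop from the inner bait to the bait at Skida1, the most widely listed, scored 10.9 and 11.6 in Ino80KD and 8.72 and 6.02 in Control, and was not listed in Brg1KD. The single Brg1KD loop, from the promoter bait to the neighbouring end at Skida1, scored 5.60. One further loop in each Ino80KD library ended 768 or 776 kb away on the other side, at the pancreatic transcription factor gene Ptf1a, with scores of 5.66 and 6.46.

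The contact was not limited to the Bmi1 baits. Counting all loops between the Skida1 and Mllt10 stretch and the stretch from Commd3 through Bmi1 to Spag6, there were 15 and 14 in Ino80KD, 0 and 1 in Brg1KD, and 13 and 2 in Control, over 23 distinct loops. Loops of the 4 baits at Skida1 and Mllt10 that ended elsewhere than on a Bmi1 bait numbered 4 and 4 in Ino80KD, 0 and 0 in Brg1KD, and 4 and 0 in Control. Within batch 1, Ino80KD held 15 loops of this contact, Brg1KD 0 and Control 13. These windows were drawn after the loops had been seen.

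**Figure D3:**
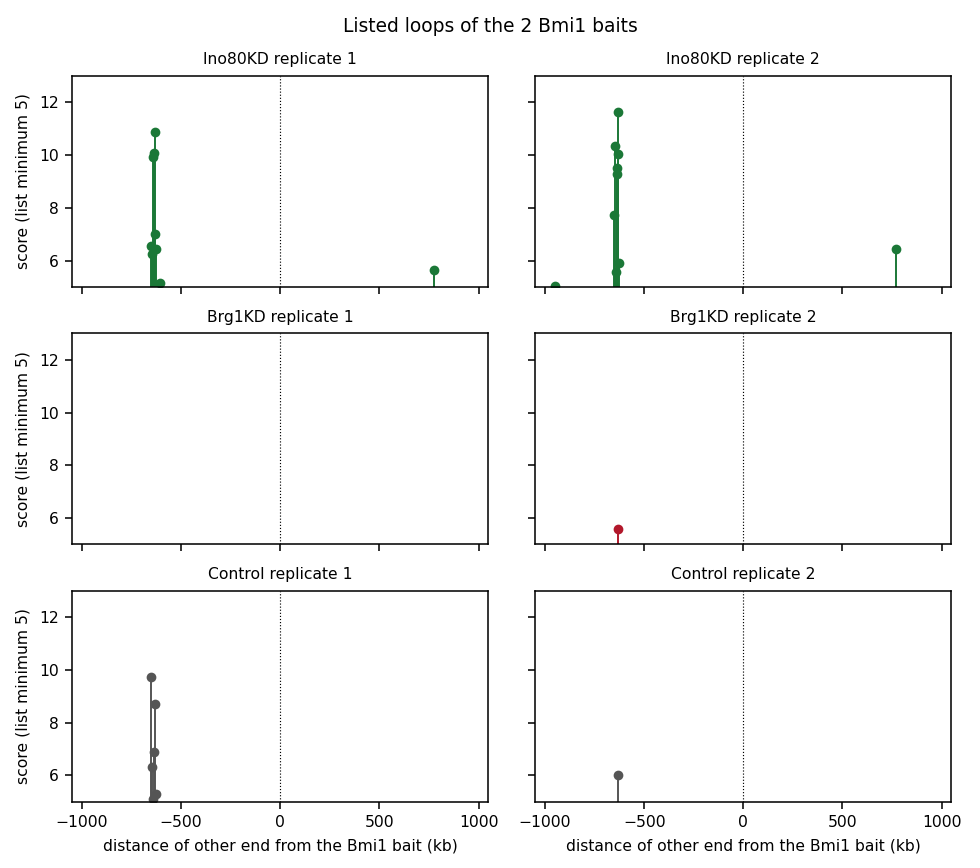
Score of each listed loop of the 2 Bmi1 baits (vertical axis, from the list minimum of 5) against the signed distance of its other end in kb (horizontal axis), 1 panel per library. The loops gather 604 to 652 kb before Bmi1 in both Ino80KD libraries and in Control replicate 1, with 1 loop there in Brg1KD replicate 2 and 1 in Control replicate 2.

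The authors' deposited tables give fold changes for wider regions around these ends. All 9 Bmi1 entries of the authors' deposited table for Ino80KD were above 0, from 0.32 to 0.62 on the log2 scale, with a weighted mean of 0.42 ± 0.126 (SE). None of these had p below 0.05. All 6 Bmi1 entries of the authors' deposited table for Brg1KD were below 0, from -0.89 to -0.36, with a weighted mean of -0.68 ± 0.181. The 3 from the inner bait to the Skida1 and Mllt10 side were -0.83 ± 0.406 (p = 0.0407), -0.87 ± 0.405 (p = 0.0319) and -0.89 ± 0.406 (p = 0.0293) in the authors' deposited table. The regions of 1 bait overlap and share contacts, so these entries are not independent, the SE of a weighted mean is too small, and no adjusted p was below 1.00.

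Pcgf2, the paralogue of Bmi1, had 4 and 1 loops in Ino80KD, 2 and 3 in Brg1KD, and 3 and 1 in Control, which overlap. Its loop of 42.6 kb from a bait inside the gene was listed in all 6 libraries, with scores of 10.9 and 6.46 in Ino80KD, 8.62 and 7.45 in Brg1KD, and 8.79 and 7.20 in Control. The entry of this bait to a region with Epop, Mllt6 and Cisd3 in the authors' deposited table for Ino80KD was 0.35 ± 0.175 (p = 0.0471, adjusted p = 1.00). The same bait and region had 0.06 ± 0.190 in the one for Brg1KD, also an authors' deposited table. From the Pcgf2 bait with the listed start, the same region had 0.08 ± 0.190 in the authors' deposited table for Ino80KD. The region includes Epop, a PRC2 accessory gene of the same set, but no listed Pcgf2 loop ended at Epop. The loop of 42.6 kb ended at chr11:97640001-97660000, where no gene end lies. The other PCGF genes Pcgf1, Pcgf3 and Pcgf5 had 0 to 2 loops a library.

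Cbx6, a chromodomain subunit that reads methylated lysine 27, had 2 and 3 loops in Ino80KD, 1 and 1 in Brg1KD, and 2 and 1 in Control. The Ino80KD libraries exceeded both Brg1KD libraries but met Control. Its only bait also holds an end of Npcd. A loop of 15.6 kb was listed in all 6 libraries, with scores between 5.00 and 6.38. A further loop of Cbx6, listed in Ino80KD replicate 2 and Control replicate 1, ended 75.6 kb away at Apobec3 and the end of Cbx7, another CBX gene of the set. Cbx7 and Rybp, a subunit of variant PRC1, had 1 loop each in all 6 libraries together.

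On the activating side, Kmt2b, a methyltransferase of bivalent promoters, had 3 and 4 loops in Ino80KD, 0 and 2 in Brg1KD, and 4 and 4 in Control. The Brg1KD counts lie below those of both other groups. A loop of 12.2 kb within and beside the gene was listed in all libraries except Brg1KD replicate 1, with scores from 5.37 in Brg1KD replicate 2 to 7.47 in Control replicate 1. Of its entries in the authors' deposited table for Ino80KD, 7 of 9 were above 0, with a weighted mean of 0.22 ± 0.100 (SE). Of those in the authors' deposited table for Brg1KD, 5 of 6 were below 0, with a weighted mean of -0.29 ± 0.119 and no p below 0.05. One of its 2 baits holds an end of Zbtb32.

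Kmt2a, the MLL1 methyltransferase, had 1 and 1 loops in Ino80KD, 3 and 0 in Brg1KD, and 1 and 3 in Control. Kmt2d, which marks enhancers, had 1 and 2 loops in Ino80KD, 2 and 2 in Brg1KD, and 2 and 1 in Control. Both overlap between all groups. Each had a short loop inside its own body listed in 5 libraries, of 11.5 kb for Kmt2a and 10.7 kb for Kmt2d. One Kmt2a bait also holds an end of Ttc36. That bait had 0 and 0 loops in Ino80KD, 2 and 0 in Brg1KD, and 0 and 2 in Control. One Kmt2d bait holds an end of Prkag1. Kmt2c had 0 to 2 loops a library.

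Setd1a, a methyltransferase that places trimethylation on lysine 4, had 6 and 3 loops in Ino80KD, 6 and 3 in Brg1KD, and 2 and 1 in Control. Both depletions lie above Control, and both are set against the same Control libraries. One of its 2 baits, with 4 and 0 of these loops in Ino80KD, 2 and 0 in Brg1KD, and 1 and 0 in Control, also holds an end of Hsd3b7. The loop of 12.8 kb from the Setd1a promoter bait into the gene was listed in all 6 libraries, with scores of 7.29 and 10.0 in Ino80KD, 8.68 and 8.37 in Brg1KD, and 7.91 and 7.55 in Control. Most of the other Setd1a loops ended at the neighbours Bcl7c, Stx4a and Zfp668, and most of those were listed in 1 library each. The Setd1a weighted mean was 0.26 ± 0.0875 (SE), with 7 of 7 entries above 0, in the authors' deposited table for Ino80KD. For Brg1KD the authors' deposited table gave 0.0012 ± 0.0822, so the additional listed loops in Brg1KD stood beside a fold change near 0. Setd1b had 0 to 2 loops a library.

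Kdm6b, a demethylase that removes the Polycomb mark from lysine 27, had 3 and 6 loops in Ino80KD, 3 and 7 in Brg1KD, and 7 and 8 in Control. The Ino80KD libraries lie below both Control libraries, and Brg1KD replicate 2 meets Control. One of its 2 baits holds an end of Tmem88. Most loops ended inside the neighbouring gene Dnah2, and the loop of 112 kb was listed in all 6 libraries, with scores of 5.94 and 7.35 in Ino80KD, 6.27 and 7.86 in Brg1KD, and 9.19 and 6.56 in Control. The Kdm6b weighted mean in the authors' deposited table for Ino80KD was 0.12 ± 0.0728, with 12 of 14 entries above 0, although fewer loops were listed. For Brg1KD the authors' deposited table gave -0.03 ± 0.0715.

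The remaining activating genes had few loops. Ash1l, a methyltransferase of lysine 36, had 1 and 0 loops in Ino80KD, 0 and 4 in Brg1KD, and 1 and 2 in Control. An Ash1l bait also holds an end of Dap3. The shared core subunits Wdr5, Rbbp5 and Ash2l, which support all KMT2 and SETD1 enzymes, had 0 to 2 loops a library. Wdr5 had 1 and 0 loops in Ino80KD, 0 and 0 in Brg1KD, and 1 and 2 in Control. Men1 had 1 loop in all, as had the H3K4 demethylase Kdm5b.

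Few members had loop counts that did not overlap between groups. For Ino80KD against Control, Bmi1 and Setd1a were higher, 2 of 27 members with a loop in those libraries, against 7.23% of 12858 genes. Eed and Kdm6b were lower, against 7.47% of genes. For Brg1KD against Control, Setd1a was higher, against 5.11% of 12806 genes, and Eed, Mtf2, Kmt2b and Wdr5 were lower, 4 of 27 members with a loop, against 10.2%. Between the depletions, Bmi1, Mtf2, Cbx6 and Kmt2b were higher in Ino80KD, 4 of 25 members with a loop, against 10.7% of 12660 genes, and Rbbp5 was lower, against 5.77%.

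The deposited fold changes were also summarised over each class, with no test between classes. In the authors' deposited table for Ino80KD, entries existed for 14 repressive genes, of which 12 had a weighted mean above 0, with a median log2 fold change of 0.22, against 8 of 12 activating genes with a median of 0.08. Over all 12041 genes with an entry, 50.7% were above 0 and the median was 0.0033. The authors' deposited table for Brg1KD had 10 of 11 repressive genes below 0 with a median of -0.07, and 6 of 11 activating genes with a median of -0.03. Over all 11967 genes there, 53.7% were below 0 and the median was -0.02. Every member entry of both tables overlapped a loop listed in one of the 4 libraries compared, as did 99.9% of all entries, so a gene enters only through listed loops and these counts are descriptions.

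The medians depended on how genes were summarised. In the authors' deposited table for Ino80KD, the median over all entries was 0.16 for repressive and 0.15 for activating genes. Among entries of above-median signal it was 0.13 and 0.16, so the order of the classes did not hold there. It was 0.21 and 0.06 with unweighted means, and 0.23 and 0.02 with a gene end within 2 kb of the bait. For Brg1KD the repressive median was -0.25 with a gene end within 2 kb of the bait. It was -0.16 over all entries and -0.12 with unweighted means in the authors' deposited table. Among entries of above-median signal there it was -0.07, and without Bmi1 also -0.07, as in the main summary. Single entries with unadjusted p below 0.05 were few. In the authors' deposited table for Ino80KD, 1 of 49 repressive entries was higher, that of Pcgf2, and 0 of 48 activating entries, against 0.912% of 34774 entries higher and 0.382% lower. In the authors' deposited table for Brg1KD, 5 of 35 repressive entries were lower, 3 of Bmi1 and 2 of Eed, and 0 of 54 activating entries, against 0.827% of 33243 entries lower and 0.373% higher. Those 5 entries rest on 2 contacts, since their regions overlap.

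**Figure D4:**
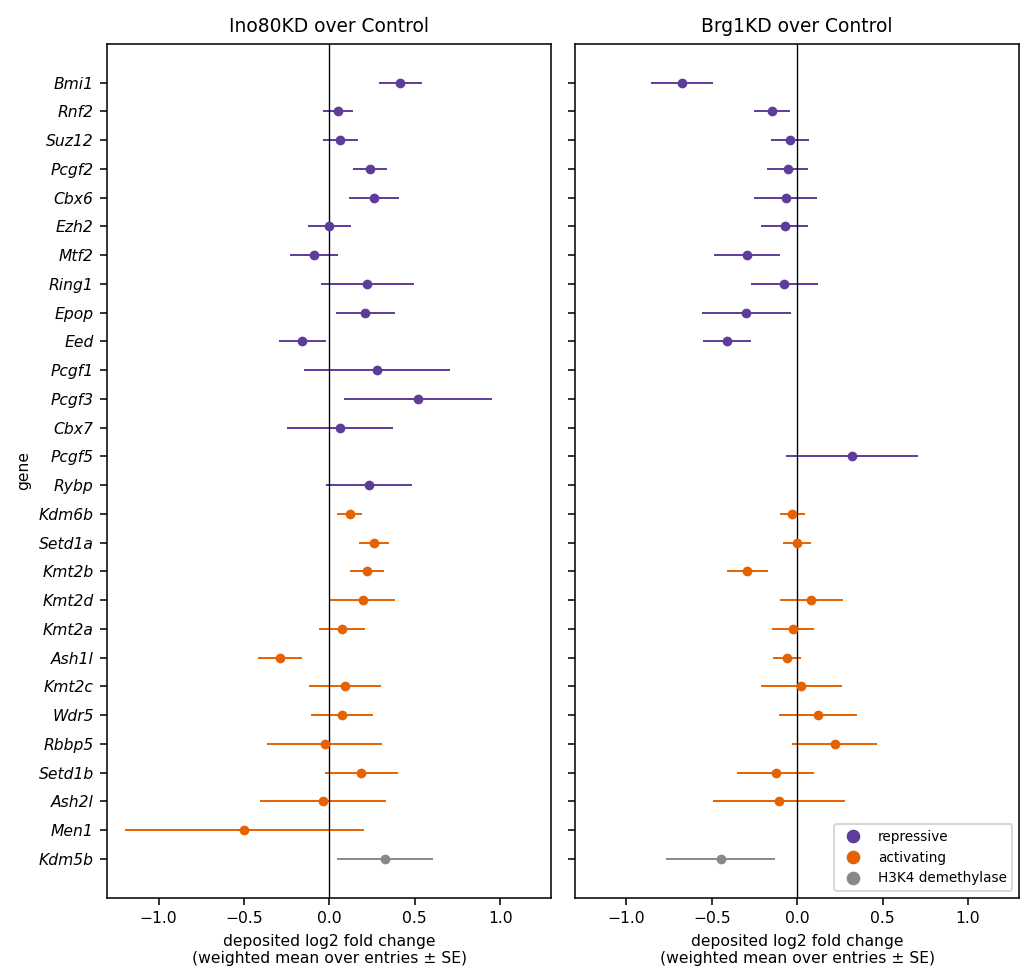
Weighted mean of the log2 fold changes in the authors' deposited tables (horizontal axis, with its SE) for each member gene with an entry (vertical axis), Ino80KD over Control at left and Brg1KD over Control at right, with repressive genes in purple, activating in orange and Kdm5b in grey. Bmi1 is at 0.42 in the Ino80KD table and at -0.68 in the Brg1KD table, and Eed is below 0 in both.

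The loops of members were also compared with all loops in length and recurrence. Repressive genes had 65 distinct loops with a median span of 209 kb and activating genes 74 with a median of 154 kb, against 300 kb over 49576 distinct loops. Most were listed in a single library, 61.5% of the repressive, 74.3% of the activating and 68.0% of all loops. Listed in all 6 libraries were 4 repressive loops, of Suz12, Rnf2, Pcgf2 and Cbx6, and 2 activating loops, of Setd1a and Kdm6b, which is 6.15% of the repressive and 2.70% of the activating loops against 3.15% of all loops. Loops between 2 baits made up 10.8% of the repressive, 9.46% of the activating and 4.42% of all loops. The 7 repressive ones were of Bmi1 and Ring1 only, and the 7 activating ones of Kmt2b, Kdm6b and Ash1l, so these shares rest on few genes.

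The same counts were made for a further 31 genes of these pathways, outside the 41. The 20 repressive ones among them had 20 and 16 loops in Ino80KD, 13 and 10 in Brg1KD, and 27 and 17 in Control. Per 1000 intrachromosomal loops this was 1.36 and 1.13 in Ino80KD, 1.06 and 0.771 in Brg1KD, and 1.76 and 1.18 in Control. Ino80KD was thus not above Control here, unlike in the repressive members. Both Ino80KD libraries lay above both Brg1KD libraries, as in those members, though the nearest values were 1.13 and 1.06. The 8 activating ones had 4 and 9 loops in Ino80KD, 4 and 3 in Brg1KD, and 5 and 7 in Control. In the authors' deposited table for Ino80KD, 9 of 15 further repressive genes were above 0 with a median of 0.06, and 5 of 6 further activating genes with a median of 0.07. For Brg1KD the authors' deposited table had 12 of 15 further repressive genes below 0 with a median of -0.16, and 4 of 5 further activating genes with a median of -0.13. None of the 31 had an entry with p below 0.05 in either of the authors' deposited tables. Bcorl1, a subunit of variant PRC1, had 8 and 5 loops in Ino80KD, 2 and 2 in Brg1KD, and 10 and 3 in Control, so that Brg1KD lay below both other groups. Psip1, which tethers KMT2 complexes to chromatin, had 2 and 3 loops in Ino80KD, 2 and 2 in Brg1KD, and 3 and 5 in Control, where Brg1KD lay below Control.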

How the data were processed

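Promoter-capture Micro-C libraries were made from DSG- and formaldehyde-fixed chromatin by micrococcal nuclease digestion, proximity ligation and promoter enrichment, per the labels' protocols. Per the submitters' processing notes, mm10 and bedtools were used. The loop caller is not given here. The authors deposited loop lists with an interaction score per loop and 2 comparison tables. Per the file headers the tables hold a mean signal, a log2 fold change and its error, a score named stat, and p-values. No header gives a direction. Of loops in both Ino80KD lists and no Control list 86.4% were above 0 in the authors' deposited table, and of those in both Control lists and no Ino80KD list 15.3%. The shares for Brg1KD came to 83.7% and 16.7%. A positive fold change is therefore read as higher in the depleted cells.

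Baits were matched to RefSeq genes. Exact two-sided permutation tests compared loops per 1000 and shares between libraries, Benjamini-Hochberg adjusted over 9 tests. A gene's entries in the deposited tables were combined as an inverse-variance weighted mean, a step tested on simulated independent values. Entries of 1 gene can overlap, so that test does not cover their SE, which can be too small for any gene. Python 3.11.15, pandas 2.3.3 and scipy 1.17.1 were used.

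The members, classes and lists were chosen with earlier results of these data known. Values per library were planned for the 10 members with the most loops (11 with a tie), members whose counts did not overlap and differed by at least 4 loops in sum, and members with an entry at p below 0.05. The further members given per library, the printed promoters, the motifs and the Bmi1 windows were chosen after values were seen. Alternatives were the bait rule, a score of at least 7, spans under 2 Mb, unscaled counts, batches, the replicate block, other averages, and leaving out a library or gene. The replicate number marks a shared batch in the labels for Ino80KD and Brg1KD, and replicate 1 of Control.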

Additional observations from a re-analysis of the deposited data

Results flagged for a closer look

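Loops between chromosomes enter no comparison above. Member genes had 6 and 2 such loops in Ino80KD, 12 and 2 in Brg1KD, and 2 and 2 in Control. Per 1000 interchromosomal loops this was 2.13 and 0.832 in Ino80KD, 3.15 and 0.769 in Brg1KD, and 0.735 and 0.680 in Control, so that all 4 depletion libraries lay above both Control libraries. In replicate 2 of both depletions the count equalled that of Control, and the higher value per 1000 comes from a smaller total. The 12 loops of Brg1KD replicate 1 were spread over 11 genes, and the library listed 3809 interchromosomal loops in all, against 2405 to 2942 in the other libraries.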

How the results depend on the processing

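Of 118 alternative values for 13 results, 106 kept their direction, 11 reversed and 1 had none. Some could not change direction, and the gene body without the 2 kb gave the main ratio in every comparison of loops per 1000. Reversals concerned comparisons with Control. The ratio for Brg1KD over Control at activating genes, 0.958, was 1.38 with a gene end within 2 kb of the bait, 1.10 at a score of at least 7, 1.05 without Kdm6b and 1.12 within batch 1, and 0.821 to 1.15 leaving out 1 library. Leaving out 1 library gave 0.721 to 1.01 for Ino80KD over Control at activating genes and 0.687 to 1.06 for Brg1KD over Control at repressive genes. The share of repressive loops, Brg1KD minus Control, was 0.305 percentage points without Bmi1 and -12.8 to 6.08 leaving out 1 library. The deposited median for Brg1KD at activating genes was 0.00077 with unweighted means and 0.014 with a gene end within 2 kb of the bait. Ino80KD over Brg1KD at activating genes was 1.0 in unscaled counts. The cause of these shifts was not tested.

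At repressive genes Ino80KD over Control stayed between 1.32 and 2.27 and Ino80KD over Brg1KD between 1.47 and 3.29 in all alternatives run. Both Ino80KD libraries lay above all others there. Leaving out a library, keeping 1 batch or using the replicate block could therefore not reverse these ratios. With the replicate block the ratios at repressive genes were 1.75 for Ino80KD over Control, 0.854 for Brg1KD over Control and 2.05 for Ino80KD over Brg1KD. At activating genes they were 0.851, 0.972 and 0.876. This block equals a ratio of geometric means and is the same however replicates are paired. It therefore removes no batch effect and cannot show whether batch matters. The versions without Bmi1 and Rnf2 and the share without Bmi1 were added after seeing the data. With 2 libraries a group and lists cut at a minimum score, single genes rest on few loops.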
